A study of Saccharomyces cerevisiae with 95 samples.

Results

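The promoters described here belong to the nuclear genes of budding yeast that are named for proteins of the mitochondrial ribosome. The genes were chosen by name in the R64 (sacCer3) annotation, as MRPL, MRPS, MRP or RSM followed by digits, which gave 67 of 6431 nuclear genes. Of these, 38 encode proteins of the large subunit and 28 proteins of the small subunit. MRP8 was given no subunit, because its role in the ribosome was not sure, and it is a member by its name alone. For each general transcription factor, the binding site of a gene was the one whose midpoint lay nearest the annotated start, from 500 bp upstream to 200 bp downstream, and sites over tRNA genes were left out.

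The data are competition ChIP-seq counts from diploid W303 cells in which each factor was present in a pair of tagged forms. One copy carried an N-terminal HA tag under the GAL1 promoter, so that it was made after raffinose cultures received 2% galactose, and the other carried an N-terminal Myc tag and was made constitutively from its own promoter. The 5 factors were TBP, TFIIA (Toa1 tagged), TFIIB, TFIIE (Tfa1 tagged) and TFIIF (Tfg2 tagged), and for the factors with several subunits a copy of each subunit was placed under galactose control. Chromatin was taken at 10, 20, 25 and 30 min in galactose and then at 40, 60, 90 and 120 min, with 1 library per factor, tag and time, so the scatter of the 8 time points about a trend is the only error available.

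The mitochondrial ribosome makes the few proteins encoded by mitochondrial DNA, most of them core subunits of the respiratory chain and of the ATP synthase. Nearly all of its proteins are encoded in the nucleus, made in the cytosol and imported. Their genes are transcribed by RNA polymerase II and, unlike the genes of cytosolic ribosomal proteins, are known for promoters without a Rap1 site. At such a promoter TBP binds first and TFIIA stabilises it, TFIIB then bridges it to the polymerase, TFIIF arrives with the polymerase, and TFIIE recruits TFIIH. In this assay, a ratio of HA to Myc that climbs late at a site relative to other sites is usually read as slow exchange of the factor there.

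Upstream sequences are shown for the members whose HA/Myc ratio moved most, namely the 4 leading risers and the 2 leading fallers in TFIIE and the 2 leading risers in TFIIF. Each is the stretch of 150 bases that begins 250 bases before the annotated start in the R64 reference, on the strand of the gene, and capitals mark matches on either strand to 5 motifs. One is the TATA element, with the letters TATAAA. The Reb1 motif was searched as TTACCCG and that of the Hap2/3/4/5 complex as CCAAT. The fourth was AATTTT, and the core of the Abf1 site was searched as TCANNNNNNACG.
MRPL8 (chrX:316576-316725, minus strand): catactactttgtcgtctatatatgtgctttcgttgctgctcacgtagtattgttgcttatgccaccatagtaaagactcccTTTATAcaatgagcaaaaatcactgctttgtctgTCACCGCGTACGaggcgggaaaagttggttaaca
MRPL4 (chrXII:1014241-1014390, plus strand): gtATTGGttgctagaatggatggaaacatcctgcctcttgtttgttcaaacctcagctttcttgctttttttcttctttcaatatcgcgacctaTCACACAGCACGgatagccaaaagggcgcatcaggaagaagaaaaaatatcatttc
RSM19 (chrXIV:695428-695577, minus strand): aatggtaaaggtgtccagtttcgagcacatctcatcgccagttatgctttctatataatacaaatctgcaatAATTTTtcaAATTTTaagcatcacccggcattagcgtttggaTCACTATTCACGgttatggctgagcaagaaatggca
MRPS18 (chrXIV:57905-58054, plus strand): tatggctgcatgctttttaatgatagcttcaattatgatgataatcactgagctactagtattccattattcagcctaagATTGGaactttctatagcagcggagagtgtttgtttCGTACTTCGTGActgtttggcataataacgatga
MRPL25 (chrVII:637678-637827, minus strand): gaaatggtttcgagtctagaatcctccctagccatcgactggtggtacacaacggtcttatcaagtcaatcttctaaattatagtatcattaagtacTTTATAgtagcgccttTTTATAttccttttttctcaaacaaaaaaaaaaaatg
MRPL17 (chrXIV:172387-172536, minus strand): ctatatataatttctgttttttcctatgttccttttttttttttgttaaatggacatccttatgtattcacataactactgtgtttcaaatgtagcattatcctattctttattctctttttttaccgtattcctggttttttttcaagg
MRPS16 (chrXVI:529451-529600, minus strand): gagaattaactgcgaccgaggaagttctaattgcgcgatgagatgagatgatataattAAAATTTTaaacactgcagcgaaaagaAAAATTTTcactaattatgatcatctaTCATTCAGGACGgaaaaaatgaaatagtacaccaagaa
MRPL3 (chrXIII:321625-321774, plus strand): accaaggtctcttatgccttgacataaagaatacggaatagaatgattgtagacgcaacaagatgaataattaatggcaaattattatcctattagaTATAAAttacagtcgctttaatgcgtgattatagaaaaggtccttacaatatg

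The 4 TFIIE risers among these, which were picked for their slopes, each hold the letters of an Abf1 core, but over all members the TFIIE ratio rose at 8 of the 18 with that core and at 17 of the 47 without it, with median slopes of 0.11 and 0.07. The MRPL25 stretch holds a pair of TATAAA matches, and the MRPL17 stretch holds none of the 5 motifs. Over 300 bases, from 250 before to 50 after the start, the Abf1 core was present at 18 of the 67 members (26.9%), against 862 of 6001 promoters of nuclear protein-coding genes (14.4%). The Reb1 motif was present at 10 members (14.9%), against 7.08% of all promoters. TATAAA was found at 24 members (35.8%), against 45.2% of all promoters, and it was commoner among large-subunit genes, at 18 of 38, than among small-subunit genes, at 5 of 28. CCAAT matched 41.8% of members and 43.3% of all promoters, and AATTTT matched 41.8% and 51.7%. These matches are descriptions of the letters and were given no test.

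Most members carried a site for every factor. A site was found for 48 of the 67 genes in TBP, 60 in TFIIA, 65 in TFIIB, 65 in TFIIE and 63 in TFIIF, which is 71.6%, 89.6%, 97.0%, 97.0% and 94.0% of the members. For all nuclear protein-coding genes the same window caught a site at 59.3%, 62.9%, 72.9%, 80.8% and 65.7%. In all, 45 members had a site in all 5 factors and 16 in 4. MRPL25 had a site in TFIIE only. RSM26 had none that the rule allowed, since its window held a site over a tRNA gene in each factor. The same was true of MRPS35 in TBP, TFIIA and TFIIE, and of MRPL3 and MRPL10 in TBP. No site served 2 members.

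The sites sat close to the starts. The midpoint lay at a median of 126 bp upstream of the annotated start in TBP, 120 in TFIIA, 107 in TFIIB, 100.5 in TFIIE and 103 in TFIIF. The annotated starts are coding starts. About 1 site in 2 was shared with a neighbour, because the start of another gene fell in the same window at 24 of 48 member sites in TBP, 32 of 60 in TFIIA, 32 of 65 in TFIIB, 32 of 65 in TFIIE and 29 of 63 in TFIIF. Nearly all of these neighbours were transcribed away from the member, and their start was the nearer one at 10, 10, 8, 9 and 6 sites. Counts at such a site cannot be told apart between the 2 promoters.

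Total counts in sites ran from 2740185 to 19483568 over the 80 libraries. Mitochondrial DNA took at most 18.1% of the counts in TBP, TFIIA, TFIIB and TFIIE libraries but between 4.48% and 61.8% in TFIIF libraries, with the highest share in the HA library at 10 min. The members' own counts were lowest there too, with 20 counts at the lowest member site, against a median of 504 over the TFIIF HA libraries. The medians were 878 and 682 counts in TBP HA and Myc libraries, 775 and 1178 in TFIIA, 1329 and 2246 in TFIIB, 1808 and 1708 in TFIIE, and 504 and 619 in TFIIF.

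Median occupancy at the members was close to that of the median site. A level is the log2 count per bp minus the median over nuclear sites outside the rDNA, averaged over the 8 times. The median member level was -0.14 for HA and -0.09 for Myc in TBP, -0.07 and 0.02 in TFIIA, -0.07 and 0.02 in TFIIB, 0.10 and 0.10 in TFIIE, and -0.08 and 0.02 in TFIIF, which is 0.907 to 1.07 times the median site. By comparison, the sites of cytosolic ribosomal protein genes had median levels between 0.52 and 1.41 for HA and between 0.68 and 1.83 for Myc. The members were also less spread than the sites as a whole, which include sites over tRNA genes. The SD of the Myc level was 0.43 over members and 0.77 over all nuclear sites outside the rDNA in TBP, 0.16 and 0.40 in TFIIA, 0.46 and 0.996 in TFIIB, 0.23 and 0.48 in TFIIE, and 0.20 and 0.39 in TFIIF. A narrower spread was not particular to the members. At 120 min the Myc SD of cytosolic ribosomal protein sites was 0.35, 0.30, 0.60, 0.27 and 0.25 in the same factors. Over all nuclear sites outside the rDNA it was then 0.81, 0.41, 1.125, 0.31 and 0.36.

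**Figure D1:**
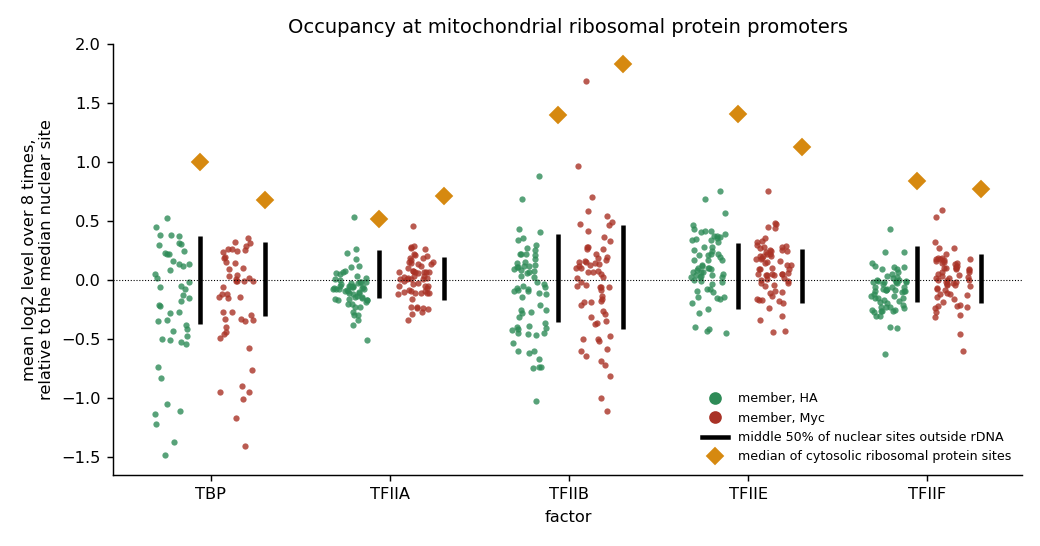
Mean log2 level of each member site over 8 times, relative to the median nuclear site (y axis), for HA and Myc in each factor (x axis), with the middle 50% of nuclear sites outside the rDNA as bars and the median of cytosolic ribosomal protein sites as diamonds. Member points lie around 0, and the diamonds stand between 0.52 and 1.83.

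A few members stood apart in level. MRPL3, a large-subunit protein with a fold like that of RNase III, had the highest Myc level in TFIIB, at 1.69 ± 0.09 (SD over 8 times), which is 3.23 times the median site, and in TFIIE, at 0.76 ± 0.39. Its HA levels were 0.88 ± 0.30 in TFIIB and 0.75 ± 0.07 in TFIIE. The MRPL3 site lay 467 bp from the nearest tRNA gene in TFIIB and 342 bp from it in TFIIE, and the part of that neighbour in its level was not tested. MRPS16, a small-subunit protein conserved from bacteria, had the highest Myc level in TFIIF, at 0.59 ± 0.18. The highest Myc level belonged to RSM18 in TBP, at 0.35 ± 0.25, and to MRP8 in TFIIA, at 0.46 ± 0.10.

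RSM19, a protein of the small-subunit head, was lowest in Myc level in 3 factors. Its HA and Myc levels were -1.49 ± 0.30 and -1.41 ± 0.61 in TBP, -1.03 ± 0.41 and -1.11 ± 0.27 in TFIIB, and -0.26 ± 0.21 and -0.60 ± 0.28 in TFIIF. It was near the median site in TFIIE, with 0.22 ± 0.29 and -0.11 ± 0.17, and had no site in TFIIA. The lowest Myc levels in the other two factors were those of the large-subunit genes MRPL7 in TFIIA, at -0.34 ± 0.10, and MRPL23 in TFIIE, at -0.45 ± 0.12. Across members the Myc levels of TBP went with those of TFIIB (Spearman rho 0.64 over 48 genes) and not with those of TFIIA (-0.22 over 45 genes) or TFIIE (-0.06 over 48 genes). The levels of TFIIB and TFIIF also went together (0.63 over 63 genes). These correlations are across genes, which are not replicates, and sites of one gene share its base composition.

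The main question of the assay is whether the HA form replaced the Myc form sooner or later at these promoters than elsewhere. The paper's western blots showed the HA form building up over the time course. Ratios in the earliest libraries therefore come from times with little HA protein. The ratio slope is the log2 change of HA/Myc per doubling of time relative to the typical site of that factor, fitted with edgeR over all sites, with p-values adjusted by the Benjamini-Hochberg method and a threshold of 0.05. In TBP, TFIIA and TFIIB at most 1 member departed detectably from the typical site, in TFIIF 4 rose and 2 fell of 63, against 19.4% and 17.1% of all sites, and in TFIIE 25 rose and 9 fell of 65, against 29.4% and 30.9% of all sites. In each factor the share of members past the threshold, both directions together, was below that of all sites, and this difference was not tested. All sites include kinds that no member has, namely sites over tRNA genes, in the rDNA and, in every factor but TFIIB, on mitochondrial DNA. The median slope of members was 0.00 in TBP, 0.02 in TFIIA, 0.03 in TFIIB, 0.07 in TFIIE and -0.02 in TFIIF, against 0.00, -0.01, 0.01, -0.01 and -0.02 over all sites. Cytosolic ribosomal protein sites had medians of 0.21, 0.24, 0.18, 0.42 and 0.55.

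**Figure D2:**
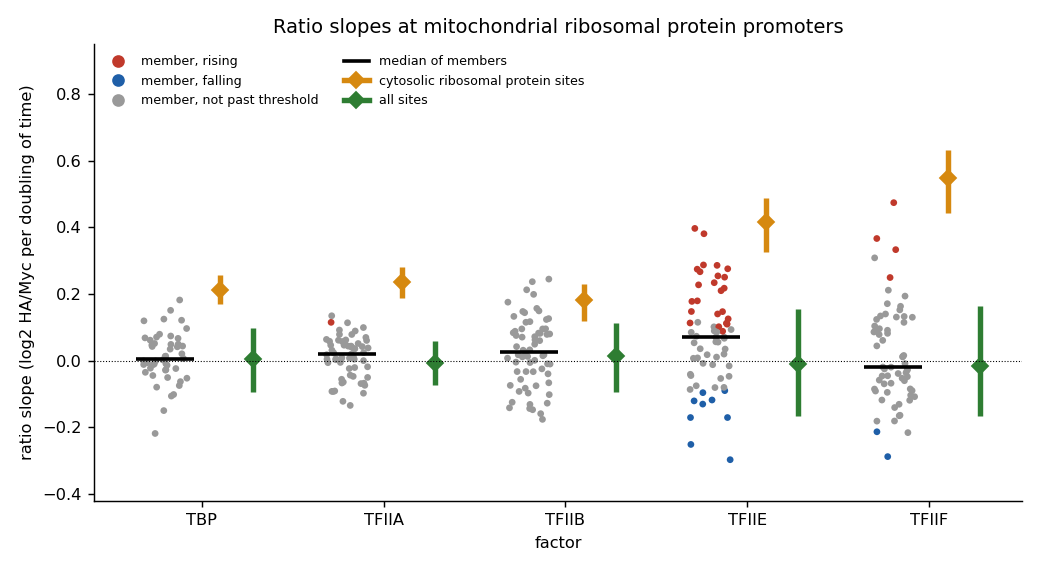
Ratio slope (log2 HA/Myc per doubling of time, y axis) of each member site by factor (x axis), coloured by call, with the member median as a line and the median and quartiles of cytosolic ribosomal protein sites and of all sites as diamonds and bars. Member medians lie between -0.02 and 0.07, and those of cytosolic ribosomal protein sites between 0.18 and 0.55.

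No member passed the edgeR threshold for the TBP ratio in either direction, where 6.64% of all sites rose and 1.25% fell. At TBP sites of protein-coding genes, 1.14% rose and 0% fell of 788 with another start in the window, and 1.37% and 0.293% of 2050 without. At an unadjusted p under 0.05 there were 2 members of 48 (4.17%), against 24.5% of all sites, and the DESeq2 test called none. The member slopes ran from -0.22 to 0.18. In TFIIB no member passed either, against 0.669% of all sites rising and 0.545% falling, with 5 of 65 members (7.69%) under an unadjusted p of 0.05, against 16.9% of all sites, and none called by DESeq2. The median SE of a member slope was 0.08 in TBP and 0.10 in TFIIB, and slopes larger than these SEs also missed the threshold, such as -0.22 ± 0.14 at RSM19 in TBP (adjusted p 0.34) and 0.24 ± 0.11 at MRPL28 in TFIIB (adjusted p 0.26).

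In TFIIA, 1 of 60 members rose (1.67%, against 7.6% of all sites) and none fell (against 9.44%), with 5 members (8.33%) at an unadjusted p under 0.05, against 32.9% of all sites, and with 1 rising and none falling by DESeq2. At TFIIA sites of protein-coding genes, 10.95% rose and 2.32% fell of 950 with another start in the window, and 7.65% and 5.12% of 1895 without. The riser was MRPL31, a large-subunit gene whose site also lies in the window of CMC1. Its log2 HA/Myc ratio had its lowest value of -0.46 at 10 min, a median of -0.24 and its highest of -0.07, so that it stood below the typical site in all 8 libraries. Its slope was 0.12 ± 0.03 (SE), or 1.08-fold per doubling, with an adjusted p of 0.038 by edgeR. The call was lost without the libraries of 10, 20, 60 or 90 min, with a loess offset, on linear time and with background subtraction. The largest adjusted p over all alternatives was 0.16.

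In TFIIE, 25 of 65 member sites rose (38.5%, against 29.4% of all sites) and 9 fell (13.8%, against 30.9%). With time on a linear scale 14 rose and 4 fell, against 23.1% and 21.1% of all sites. Each fit that left out a time had between 5 and 7 falling, the fewest without 20 min. Shares of all sites in those fits are not given here. A change at members was not told apart there from a change at all sites. The large subunit had 13 rising and 7 falling of 38, and the small subunit 12 rising and 2 falling of 26. Of the other proteins of the mitochondrial ribosome, whose genes have other names, 9 of 13 rose and none fell, with a median slope of 0.12. Genes of mitochondrial translation outside the ribosome, such as tRNA synthetases and mRNA-specific activators, had 9 rising and 14 falling of 32, with a median of -0.09. Cytosolic ribosomal protein sites rose at 114 of 118.

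MRPL8, the large-subunit gene with the largest rise, has a TFIIE site at chrX:316325-316821 with its midpoint 98 bp upstream of the start. Its log2 HA/Myc ratio was -0.73, -0.09, -0.21, 0.20, 0.48, 0.73, 0.66 and 0.61 at the 8 times in order. The 4 libraries from 40 min on all stood above the 4 earlier ones. The fitted slope of 0.40 ± 0.06, or 1.32-fold per doubling, had an adjusted p of 2.0e-04. The site also lies in the window of COA3, a gene of cytochrome c oxidase assembly.

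MRPL4, another large-subunit gene, had ratios of -0.63, 0.02, -0.06, 0.20, 0.35, 0.70, 0.77 and 0.68 at a site shared with LSM3, and the start of LSM3 was the nearer one. Its slope of 0.38 ± 0.05 had an adjusted p of 6.0e-05. RSM19 came next with -0.40, 0.10, 0.09, 0.39, 0.52, 0.65, 0.59 and 0.68, and its slope of 0.29 ± 0.05 (adjusted p 3.9e-04) was fitted at a site shared with DBP6, a helicase of cytosolic ribosome assembly. MRPS18, a small-subunit gene, had -0.63, -0.27, -0.14, -0.01, 0.30, 0.44, 0.30 and 0.37, and its slope of 0.29 ± 0.05 (adjusted p 4.7e-04) at a site shared with the kinase gene MCK1. In each of these 3 genes the values from 40 min on did not overlap the earlier ones.

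Falls of the TFIIE ratio were led by large-subunit genes. MRPL25 had 0.53, 0.19, 0.26, -0.07, -0.47, -0.33, -0.51 and -0.37, with a slope of -0.30 ± 0.06 (adjusted p 0.0010). MRPL17 had 0.65, 0.18, 0.03, 0.00, -0.18, -0.46, -0.05 and -0.33, with a slope of -0.25 ± 0.05 (adjusted p 0.0019). MRP49 had a slope of -0.17 ± 0.03 and MRPL1, whose bacterial homologue forms the stalk next to the exit site, one of -0.17 ± 0.05. In all 4 the values from 40 min on lay below the earlier ones, which the choice by slope favours here too. The call was lost with a loess offset at MRPL25 and MRPL1, with time on a linear scale at MRPL17, and with background subtraction at MRP49, MRPL1 and, among the risers, MRPL4. None of the 4 falling sites had the start of another gene in its window, while all 4 of the leading risers did.

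That contrast held in part for the members as a whole. Of the 32 TFIIE member sites with another start in the window, 13 rose and 1 fell, and of the 33 without, 12 rose and 8 fell. The same split was present over all genes with a TFIIE site, with 42.2% rising and 14.8% falling of 1085 sites with another start, and 27.8% rising and 32.1% falling of 2702 sites without. The sites with another start were wider, at a median of 495 bp for members against 431 bp for members without. No test of this difference was made.

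**Figure D3:**
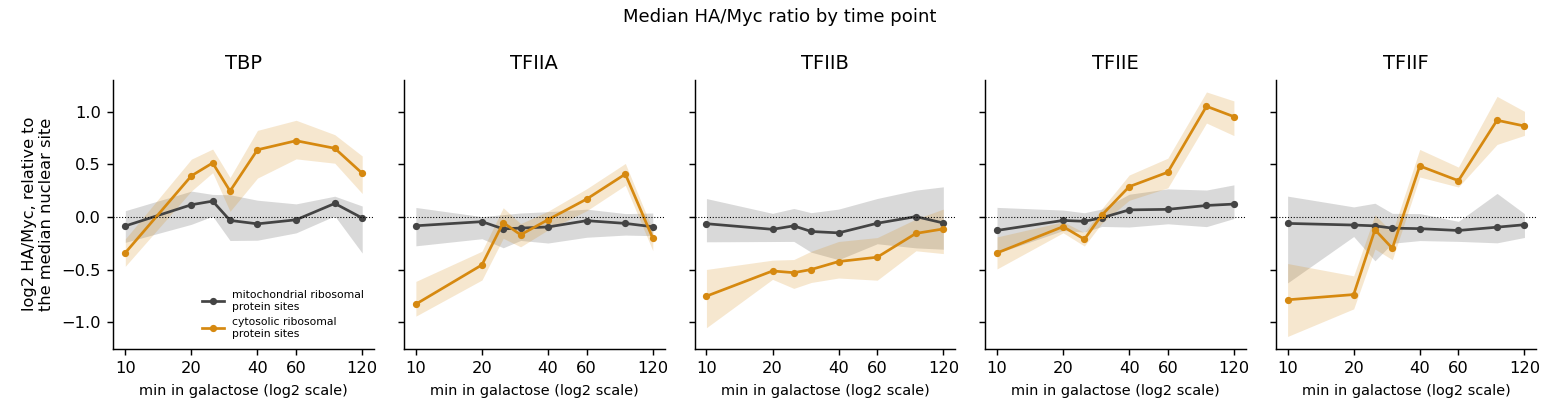
Median log2 HA/Myc ratio relative to the median nuclear site (y axis) at each time in galactose (x axis, log2 scale) for member sites and cytosolic ribosomal protein sites, with bands from the lower to the upper quartile. In TFIIE the member median was -0.13 at 10 min and 0.12 at 120 min, and in the other factors it stayed between -0.15 and 0.15.

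The tags were then fitted apart to see which one moved. Each single-tag slope is relative to the typical site of that factor and tag. Counts of HA or Myc said to rise or fall did so relative to that site, and the absolute change was not measured. In TFIIE most single-tag calls were on Myc, while the slopes of both tags went with that of the ratio, at a Spearman rho of 0.76 for HA and -0.87 for Myc across the 65 members, both of which share libraries with the ratio. Myc counts fell at 32 of 65 members (49.2%, against 29.4% of all sites) and rose at 5 (7.69%, against 30.9%). Without 120 min 21 members fell and 2 rose, and without 90 min 24 fell and 3 rose, with the shares of all sites in these fits not given here. HA counts rose at 1 member, against 3.04% of all sites, and fell at none, against 3.78%, with 14 members (21.5%) under an unadjusted p of 0.05, against 30.2% of all sites, and DESeq2 called 4 rising and 4 falling. Of the 25 members with a rising ratio, 23 had a falling Myc slope and no HA call, 1 had a rising HA slope, and 1 had neither. Of the 9 with a falling ratio, 4 had a rising Myc slope, 5 had no call on either tag, and none had an HA call.

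MRPL3 showed the steepest Myc decline in TFIIE. Its HA level stayed between 0.65 and 0.88 with a median of 0.74. Its Myc level had a highest value of 1.13, a median of 0.86 and a lowest of 0.20. Every Myc value from 40 min on lay below the earlier ones, which the choice by slope favours. Its Myc slope of -0.28 ± 0.04 (adjusted p 6.9e-04) stood beside a ratio slope of 0.25 ± 0.04 (adjusted p 2.9e-04), a call that was lost with a loess offset and with background subtraction. At MRPL8 the HA level was -0.28 at 10 min and between 0.32 and 0.71 later, while the Myc level of 0.51 at 10 min compared with -0.15 at 120 min, for a Myc slope of -0.22 ± 0.04. Rises of Myc were largest at MRPL25, with -0.52 at 10 min, 0.02 at 120 min and a slope of 0.23 ± 0.04, and at MRP49, with a slope of 0.12 ± 0.04 that was not called without 120 min. MRP4, a small-subunit gene, was the only member whose TFIIE HA counts rose, with a level of -0.52 at 10 min and 0.20 at 120 min and a slope of 0.17 ± 0.04 (adjusted p 0.0496). That call was lost in 7 of the 8 fits that left out a time point, all but the one without 40 min, with an adjusted p of up to 0.33 over all alternatives.

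The TFIIE Myc libraries became flatter with time at every kind of site. The SD of Myc levels over nuclear sites outside the rDNA was 0.66 at 10 min and 0.31 at 120 min, and over members it was 0.32 and 0.15. The SD of HA levels was 0.54 and 0.60 over all those sites, and 0.27 and 0.26 over members. The ratio slope of members went with their Myc level (rho 0.60 over 65 genes, against 0.70 over 4407 nuclear sites), and both values share the Myc libraries. The same rho over members and over nuclear sites was 0.41 and 0.55 in TBP and 0.34 and 0.55 in TFIIA. It was 0.09 and 0.25 in TFIIB, and 0.37 and 0.59 in TFIIF. The part of this flattening in the members' calls was not tested beyond the fits with a loess offset, which removes trends with level and left 17 rising and 8 falling, and with background subtraction, which left 16 and 4. The shares of all sites under these fits are not given here. MRP49 kept its fall of ratio with the offset and had a slope of 0.22 with background subtraction, where it was not called.

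**Figure D4:**
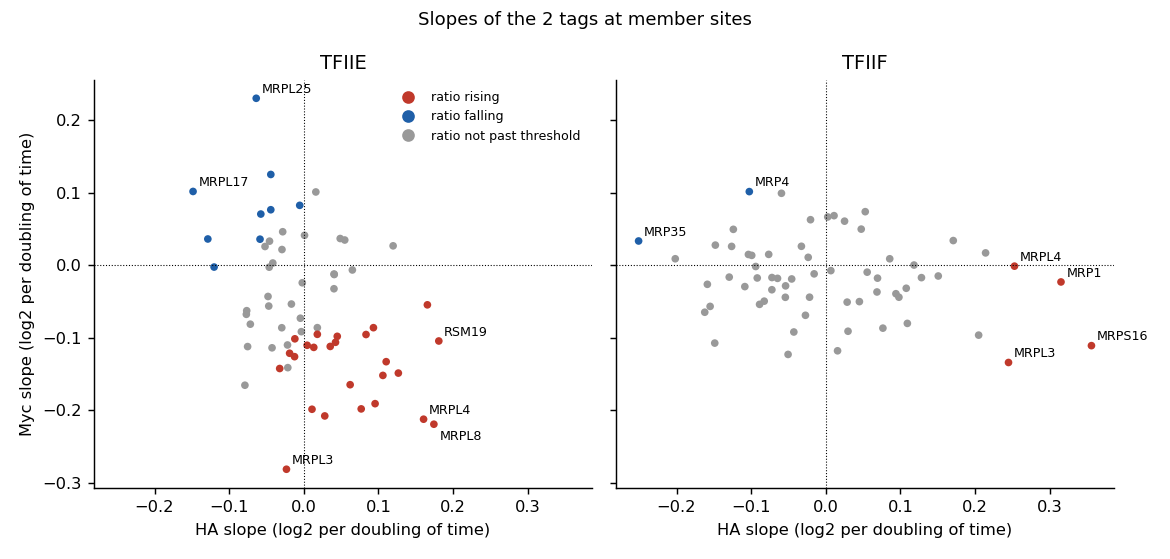
HA slope (x axis) against Myc slope (y axis), both in log2 per doubling of time, for each member in TFIIE and TFIIF, coloured by the call on the ratio. In TFIIE the risers lie low, at Myc slopes down to -0.28, and in TFIIF they lie to the right, at HA slopes from 0.24 to 0.36.

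In TFIIF, 4 of 63 members rose (6.35%, against 19.4% of all sites) and 2 fell (3.17%, against 17.1%). At TFIIF sites of protein-coding genes, 18.6% rose and 10.5% fell of 937 with another start in the window, and 22.3% and 9.62% of 2151 without. HA counts rose at 6 members (9.52%, against 22.2%) and fell at 1 (1.59%, against 21.1%). Myc counts rose at none, against 0.711% of all sites, and fell at none, against 0.0547%, with 7 members (11.1%) at an unadjusted p under 0.05, against 15.7% of all sites, and with 2 falling by DESeq2. DESeq2 also gave 8 rising and 2 falling in the ratio and 7 rising and 7 falling in HA, and linear time gave 2 rising and none falling in each. The shares of all sites under these alternatives are not given here, so changes at members were not told apart from changes at all sites. All 4 of the members with a rising ratio also had a rising HA slope past the threshold, and none had a Myc call. Cytosolic ribosomal protein sites rose in ratio at 127 of 130.

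MRPS16 had the largest rise in TFIIF, at chrXVI:529292-529639, a site shared with the ribosome assembly gene RRP12. Its log2 HA/Myc ratio was -1.75, -0.63, -1.06, -0.55, -0.09, 0.00, -0.14 and 0.22, and every value from 40 min on was above every earlier one. Behind the first of these stood 65 HA counts, and behind the others 131 to 1843. The fitted ratio slope of 0.47 ± 0.09, or 1.39-fold per doubling, had an adjusted p of 5.4e-04, beside an HA slope of 0.36 ± 0.08. MRPS16 and MRPL3 had the highest and next highest TFIIF Myc levels among members, at 0.59 and 0.54. The part of level in their rises was not tested.

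MRPL3 had TFIIF ratios of -1.17, -0.57, -0.52, -0.48, 0.06, -0.16, 0.28 and 0.13, for a slope of 0.37 ± 0.07 (adjusted p 0.0010). MRP1, a small-subunit gene that shares its site with SVF1, had -0.81, -0.33, -0.58, -0.28, 0.16, 0.06, 0.43 and 0.26, for a slope of 0.33 ± 0.08 (adjusted p 0.0031). In both, as at MRPS16, late and early values did not overlap, which the choice by slope favours. Of all 63 members, the late ratios stood wholly above the early ones at 5 and wholly below at 3. The share of all sites that did so is not given here, so these counts are not a result about the members. The call of MRP1 was lost with the loess offset, on linear time and with background subtraction, with an adjusted p of up to 0.10. MRPL4 had a slope of 0.25 ± 0.09 with an adjusted p of 0.031, and its values overlapped. Its call was lost without the libraries of 20 or 90 min and on linear time. After background subtraction limma called no member in either direction, with 8 at an unadjusted p under 0.05.

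The falls in TFIIF were weaker. MRP35, a large-subunit gene, had 0.69, 0.06, 0.79, -0.01, -0.51, -0.11, -0.40 and -0.24, for a ratio slope of -0.29 ± 0.11 (adjusted p 0.041). Its HA slope of -0.25 ± 0.09 was not called without the libraries of 10, 30, 60, 90 or 120 min. MRP4 had its highest ratio of 1.10 at 10 min, a median of 0.26 and a lowest of 0.02, for a slope of -0.21 ± 0.08 (adjusted p 0.039). Neither fall was called without the libraries of 10, 30 or 60 min. MRP35 was not called without those of 25 or 90 min either, nor MRP4 without those of 120 min, and the largest adjusted p over all alternatives was 0.43 for MRP35 and 0.46 for MRP4. With libraries scaled by their total count in sites, which moved the median TFIIF ratio slope of all sites to 0.51, the slopes of MRP35 and MRP4 were 0.23 and 0.31. MRP4 thus rose in TFIIE and, relative to the typical site, fell in TFIIF.

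**Figure D5:**
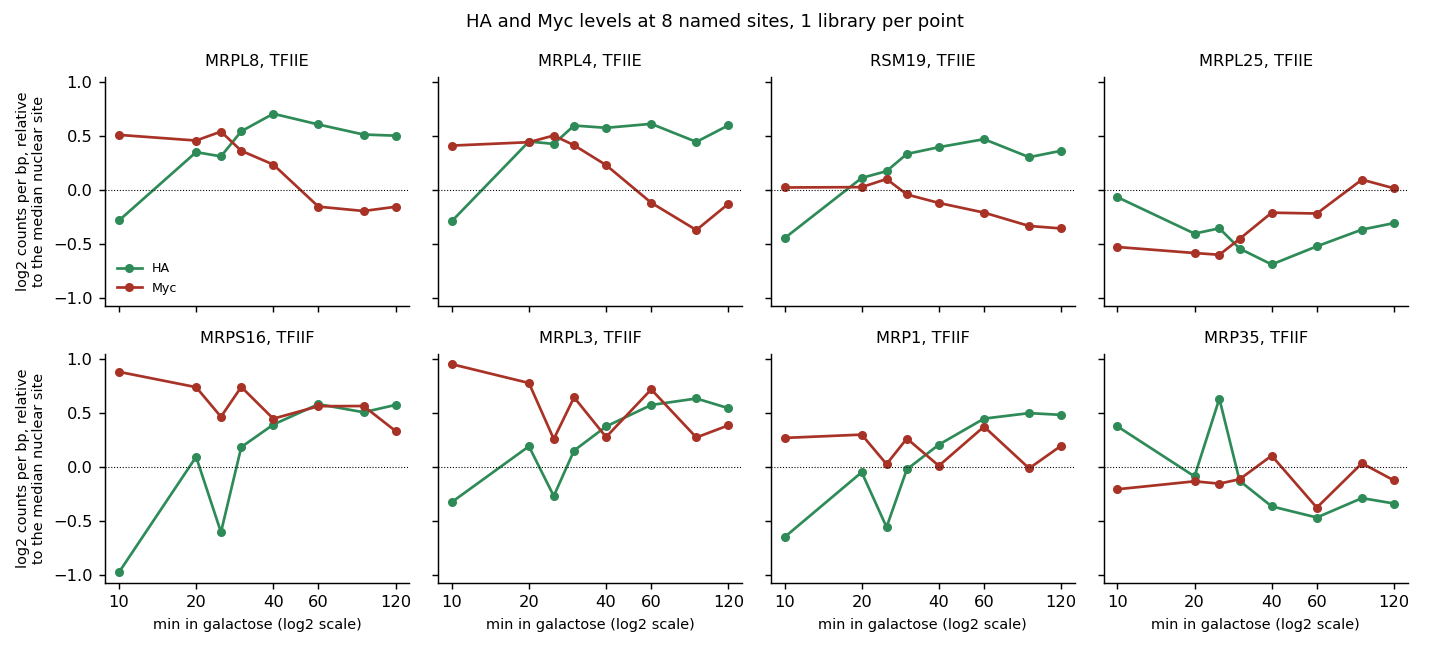
HA and Myc levels (log2 counts per bp relative to the median nuclear site, y axis) against time in galactose (x axis, log2 scale) at 4 TFIIE sites (top) and 4 TFIIF sites (bottom), 1 library per point. At MRPL8 the Myc points run between 0.55 and -0.19, and at MRPS16 the HA points between -0.97 and 0.58.

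In the remaining factors the single tags moved at few members. For HA, 1 member rose and 2 fell in TBP, against 8.87% and 7.27% of all sites, 2 rose and none fell in TFIIA, against 11.5% and 10.2%, and none rose and 1 fell in TFIIB, against 5.65% and 3.05%. At an unadjusted p under 0.05 there were 4 members in TBP (8.33%, against 28.9% of all sites), 11 in TFIIA (18.3%, against 37.8%) and 5 in TFIIB (7.69%, against 25.3%), and DESeq2 called 1 rising and 2 falling, 4 rising and 1 falling, and none rising and 1 falling. For Myc, none rose or fell in TBP, against 0.502% and 1.76%, or in TFIIA, against 0.217% and 0.19%. In TFIIB none rose and 3 fell, against 10.8% and 9.37%. The unadjusted counts were 6 in TBP (12.5%, against 16.8% of all sites), 4 in TFIIA (6.67%, against 12.1%) and 12 in TFIIB (18.5%, against 34.1%), and DESeq2 called 2 falling in TBP, 1 falling in TFIIA, and 1 rising and 4 falling in TFIIB.

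The TBP HA counts rose at the small-subunit gene MRP13, with a lowest level of -0.62, a median of -0.14, a highest of 0.30 and a slope of 0.20 ± 0.05 (adjusted p 0.019). They fell at MRPS17, with a slope of -0.21 ± 0.06 (adjusted p 0.042), and at the large-subunit gene MRPL51, with -0.20 ± 0.05 (adjusted p 0.016). Leaving out the libraries of 10, 20 or 90 min ended the call of MRP13, those of 10 or 120 min that of MRPL51, and those of any time but 10 min that of MRPS17. Time on a linear scale ended all 3 calls. Total-count scaling also ended that of MRP13, the loess offset that of MRPL51 and DESeq2 size factors that of MRPS17. None of these 3 passed for the ratio.

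The TFIIA HA counts rose at MRPL16, with a slope of 0.10 ± 0.03 (adjusted p 0.020, lost without 10 or 90 min), and at MRPS16, with 0.07 ± 0.02 (adjusted p 0.0496, lost in every fit that left out a time point but the one without 120 min). In TFIIB the HA counts fell at MRPL7, whose highest level of -0.25 came at 10 min and lowest of -1.39 at 120 min, for a slope of -0.27 ± 0.07 (adjusted p 0.027, lost without 20, 60, 90 or 120 min). The TFIIB Myc counts fell at MRPL28, with levels of -0.31 at 10 min and -1.28 at 120 min and a slope of -0.30 ± 0.07 (adjusted p 0.011, lost without 10 min), and at MRPS18, with -0.23 ± 0.07 (adjusted p 0.033, lost without 10, 20, 90 or 120 min). At MRP8 they fell by 0.17 on the log2 scale per doubling (SE 0.05, adjusted p 0.034). The losses listed so far are those of fits that left out a time. Time on a linear scale also ended the calls of MRPL16, MRPS16 and MRPS18, and total-count scaling that of MRPL7. The call of MRPS16 was lost too with DESeq2 size factors, with a loess offset and over nuclear sites outside the rDNA.

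No member passed the ratio threshold in 3 or more factors. MRP1, MRPL3 and MRPL4 rose in both TFIIE and TFIIF, where 29.4% and 19.4% of all sites rose, and MRP4 passed in both with opposite signs. MRP1 had positive slopes in every factor, with 0.07 in TBP, 0.11 in TFIIA, 0.15 in TFIIB, 0.27 in TFIIE and 0.33 in TFIIF. Across members the ratio slopes of TFIIE went with those of TFIIA (rho 0.51 over 60 genes), those of TFIIA with those of TFIIF (0.42 over 58 genes) and those of TBP with those of TFIIF (0.41 over 48 genes), and the lowest values were -0.13 for TBP with TFIIE and -0.02 for TBP with TFIIB (48 genes each).

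Most of the members that were named whatever their values did not pass the ratio threshold. MRP7, whose bacterial homologue reaches into the peptidyl transferase centre, had ratio slopes of 0.04, 0.01, -0.02 and 0.08 in TFIIA, TFIIB, TFIIE and TFIIF, and none passed. MRPL32, which the m-AAA protease must cleave before it joins the large subunit, had slopes from -0.10 to 0.10, and MRPL36 from -0.07 to 0.07. The small-subunit genes MRPS5 and MRPS28 had slopes from 0.01 to 0.08 and from 0.04 to 0.08, and RSM22, a methyltransferase-like assembly factor, from -0.05 to 0.04, none of them past the threshold. MRP20, whose homologue lines the exit of the peptide tunnel, passed in TFIIE with 0.21 ± 0.04 (adjusted p 7.5e-04, lost with a loess offset and with background subtraction). MRP51, which acts in translation of mRNAs through their leaders, fell in TFIIE with -0.12 ± 0.04 (adjusted p 0.016, lost without 10 or 120 min, with a loess offset and on linear time). RSM24 rose there with 0.13 ± 0.05 (adjusted p 0.047, lost without 10, 20, 25 or 60 min, with total-count scaling, with a loess offset and on linear time, where p reached up to 0.56 over all alternatives), and MRP8 passed in no factor, with slopes from 0.02 to 0.18.

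The likeness of HA and Myc levels over members varied with time and did not follow a steady course. The rank correlation of HA with Myc level over members in TFIIA was lowest at 10 min (0.08) and highest at 90 min (0.50), with 0.37 at 120 min. In TFIIF it was -0.11 at 10 min, 0.83 at 60 min, 0.15 at 90 min and 0.69 at 120 min. In TFIIE it was 0.44 at 10 min, 0.90 at 25 min and 0.31 at 120 min. In TBP it lay between 0.67 and 0.91 and in TFIIB between 0.53 and 0.83 at all times. Over all nuclear sites outside the rDNA the values at 10 and 120 min were 0.01 and 0.48 in TFIIA, 0.57 and 0.43 in TFIIE, and -0.08 and 0.83 in TFIIF.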

How the data were processed

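The authors aligned the reads to sacCer3 with Bowtie2 2.2.6, called sites with MACS2 2.1.0.20151222 and made the deposited tables with bedtools, per the submitters' processing notes. The tables deposited by the authors hold raw read counts per site and time for 1 factor and tag, not normalized. All 81 count columns matched a sample label, so 0 columns were left unmatched, and 80 entered the fits. Input libraries and 0 min libraries were not used here, apart from TFIIB Myc at 0 min.

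Site starts were converted to 1-based positions and genes were taken from the R64 annotation. Slopes per log2 of time were fitted with edgeR 4.0.16 (TMM, quasi-likelihood test, sites averaging 10 counts or more) in R 4.3.3, with Benjamini-Hochberg adjustment over all sites of a factor. The ratio slope was the interaction of tag with log2 time, with time as a block, on 6 residual degrees of freedom. Each time had 1 library, so p-values measure scatter about the trend. Levels used a pseudocount of 0.5. The scripts were tested on simulated data. DESeq2 1.42.0 and limma 3.58.1 served as alternatives, and plots used matplotlib 3.10.9. Genes were named by rule: up to 4 per direction with the largest ratio slopes past the threshold, up to 2 per direction for HA and Myc alone, the highest and lowest Myc level, members past the ratio threshold one way in 3 or more factors, and 12 fixed genes; members named for a missing site, MRP8 in TFIIB Myc, and RSM19 and MRPL28 as slopes that missed the threshold were chosen after their values were seen. The members and all lists were chosen with earlier results of these data known.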

Additional observations from a re-analysis of the deposited data

How the results depend on the processing

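With 1 library per time, trends smaller than the scatter about the line were not detectable, and low counts at 10 and 25 min limited TFIIF HA. The ratio fits paired the HA and Myc libraries of a time through the time block, and no group had a replicate to pair. Among named genes, the calls of MRP1, MRPL8, MRPS18 and RSM19 for the TFIIE ratio, of MRPL25, MRPL3 and MRPL8 for TFIIE Myc and of MRP1 for TFIIF HA held under every alternative that gave them a value. Over all alternatives 1314 values of named genes kept their side of the threshold, 113 lost the threshold and 24 gained it. Another 8 changed sign with a call in the main fit or in the alternative. Sign changes of slopes called in neither fit were not counted apart and stand among the 1314. The cause of these shifts was not tested.

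Scaling by the total count in sites moved the median slope of all sites, to 0.51 for the TFIIF ratio, -0.15 for the TBP ratio, 0.38 for TFIIF HA and -0.20 for TBP HA. The shares of all sites rising and falling were then 5.66% and 22.6% for the TBP ratio, 6.45% and 60.7% for TBP HA, 37.7% and 4.15% for the TFIIA ratio, 48.9% and 2.82% for TFIIA HA, 72.8% and 1.75% for the TFIIF ratio, 57.5% and 0.875% for TFIIF HA, 2.35% and 11.5% for TFIIE HA, and 7.64% and 12.7% for TFIIB Myc. For the members it gave 3 falling in the TBP ratio, 0 rising and 34 falling in TBP HA, 28 rising in the TFIIA ratio, 35 rising in TFIIA HA, 0 falling in TFIIB HA, 8 falling in TFIIB Myc, 0 rising and 6 falling in TFIIE HA, 3 rising in TFIIE Myc, 55 rising and 0 falling in the TFIIF ratio, and 39 rising and 0 falling in TFIIF HA. Slopes of named genes that changed sign under it, with a call in the main fit or in this one, were the TFIIF ratios of MRP35 (0.23), MRP4 (0.31), MRP51 (0.47), MRPL32 (0.42), MRPL36 (0.50) and RSM24 (0.44) and the TFIIF HA slope of MRP35 (0.15).

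Except where a share is printed, member counts under an alternative, here, above and below, come without the share of all sites called under it. Such counts do not tell a change at members from a change at all sites. DESeq2 size factors gave 1 falling in TBP HA, 1 rising in TFIIA HA and 1 falling in the TFIIF ratio. The loess offset gave 1 falling in TBP HA, 0 rising in the TFIIA ratio, 1 falling in TFIIA HA, 17 falling in TFIIE Myc and 3 falling in TFIIF HA. The DESeq2 test gave 2 falling in TBP Myc, 4 rising and 1 falling in TFIIA HA, 1 falling in TFIIA Myc, 1 rising in TFIIB Myc, 4 rising and 4 falling in TFIIE HA, 8 rising in the TFIIF ratio, 7 falling in TFIIF HA and 2 falling in TFIIF Myc. Time on a linear scale gave 0 rising and 0 falling in TBP HA, 0 rising in the TFIIA ratio and TFIIA HA, 1 falling in TFIIB Myc, 14 rising and 4 falling in the TFIIE ratio, 0 rising in TFIIE HA, 2 rising and 0 falling in the TFIIF ratio, and 2 rising and 0 falling in TFIIF HA. Background subtraction gave 0 rising in the TFIIA ratio, 16 rising and 4 falling in the TFIIE ratio, and 0 rising and 0 falling in the TFIIF ratio, and it gave MRP49 a TFIIE ratio slope of 0.22. The narrow window gave 1 falling in TBP HA and 0 in TFIIB HA.

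Both remaining alternatives were chosen after seeing the data. Nuclear sites outside the rDNA gave 1 rising in TFIIA HA and 0 rising in TFIIE HA. Members with no other gene start in the window, a smaller set, gave 0 falling in TBP HA, 0 rising in the TFIIA ratio and TFIIA HA, 0 falling in TFIIB HA, 1 falling in TFIIB Myc, 12 rising in the TFIIE ratio, 0 rising in TFIIE HA, 17 falling in TFIIE Myc, 1 rising and 1 falling in the TFIIF ratio, and 2 rising in TFIIF HA.

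Leaving out 1 time in turn gave between 19 and 25 members rising and between 5 and 7 falling in the TFIIE ratio, the lowest of these without 10 min (19 rising) and without 20 min (5 falling). It gave 2 to 7 rising and 21 to 32 falling in TFIIE Myc, 0 to 1 rising in TFIIE HA, 3 to 6 rising and 0 to 3 falling in the TFIIF ratio, 4 to 6 rising and 0 to 3 falling in TFIIF HA, 0 to 2 rising and 0 to 1 falling in the TFIIA ratio, 0 to 6 rising and 0 to 1 falling in TFIIA HA, 0 to 2 rising and 0 to 2 falling in TBP HA, 0 to 1 falling in TFIIB HA, and 0 to 3 falling in TFIIB Myc.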

Other observations

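A TFIIB Myc library taken at 0 min, before galactose, entered no comparison. It held 5481265 counts in sites, against 13770385 to 18599396 in the later TFIIB Myc libraries. At its 65 member sites the lowest level was -1.12 at MRPS35, the median 0.14 and the highest 1.78 at MRPL3, and 50 members stood above the median nuclear site. Its levels went with the mean HA level of the later libraries at a Spearman rho of 0.44 and with the mean Myc level at 0.50, across members, which are not replicates. The MRPS35 site in TFIIB lay 11 bp from the nearest tRNA gene, and its mean Myc level over the later times was -0.04. Changes from 0 min to later times were not tested.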
